A study of Mus musculus with 12 samples.

Results

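The mitochondrial ribosomal protein genes of gonadal white adipose tissue (gWAT) are described here, in male mice with and without a macrophage deletion of Gja1, the gene of the gap junction protein connexin 43 (Cx43). Members were all genes of the count table whose symbol starts with Mrpl or Mrps and a number, without pseudogenes, and whose mean expression over the 12 libraries was at least 1 CPM, the count scaled to the total of its library. The rule used the level and no difference between groups. It took 78 of the 19792 genes in the table, 49 Mrpl and 29 Mrps genes. None of the 78 measured genes of the family fell below the level, and the members nearest to it were Mrpl47 and Mrps11, at means of 11.9 and 16.7 CPM. All 78 passed the filter on low counts, with 449 to 9751 counts per gene and library.

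The 4 groups had 3 libraries each. KO-HFD and KO-NCD mice carried floxed Gja1 alleles and Csf1r-CreER, a tamoxifen-activated recombinase under the promoter of the macrophage growth factor receptor gene. WT-HFD and WT-NCD mice carried the floxed alleles without the recombinase, so that all 4 groups shared them. Mice were started at the age of 6 weeks on a high-fat diet (HFD) or normal chow diet (NCD), which they ate for 8 weeks. The deposited protocol gives tamoxifen for 5 days in weeks 1 and 5. The study's methods instead describe 5 consecutive days that ended before the experiments started, so the schedule is not settled. The sample labels list tamoxifen for KO mice alone and the study's methods for both genotypes, so if the labels are complete, tamoxifen and genotype cannot be told apart. Csf1r is active in cells of the myeloid lineage in general. The strain is given as C57BL/6, while the recombinase line was made in another strain, so background alleles can also differ between genotypes. The submitters called the libraries biological replicates and did not say whether each is 1 mouse, so p-values measure the spread between these libraries. Libraries are named by group and by the number in the count table, which in WT-HFD is 1, 2 and 4.

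Mitochondria keep ribosomes of their own, which are built from ribosomal RNA made from mitochondrial DNA and from proteins that are encoded in the nucleus, made in the cytosol and imported. These ribosomes translate the small set of messenger RNAs of mitochondrial DNA, all of which encode core subunits of the oxidative phosphorylation complexes. Some of the proteins descend from those of bacterial ribosomes and others are found in mitochondria only. Mature adipocytes of white fat hold fewer mitochondria than those of brown fat, and use them in lipid synthesis as well as for respiration.

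Libraries held between 47185990 and 73167755 counts (median 63334598), and the members took 0.230% to 0.377% of them. Gja1 was measured first as a check of the genotype. It was at 67.2, 96.8 and 65.7 CPM in KO-HFD mice, 48.9, 149.8 and 67.1 CPM in KO-NCD mice, 68.8, 65.8 and 68.1 CPM in WT-HFD mice and 73.8, 76.8 and 83.6 CPM in WT-NCD mice, and none of the comparisons passed the test. Whole gWAT holds other cells that express Gja1, so these levels do not check a deletion in macrophages. The study checked the deletion by qPCR in isolated macrophages. By qPCR of whole gWAT it also reported an effect of genotype on Gja1, which was not found in these libraries. Adipocyte markers were present in every library, none at 0. Some libraries also held transcripts of other tissues or cells. Transcripts that mark the seminal vesicle, a gland next to this fat depot, took 8.31%, 9.77% and 1.90% of the counts in WT-NCD 1, 2 and 3, and at most 0.00162% in any other library. The 6 liver markers summed to 1426 CPM in KO-HFD 2 and 544 CPM in KO-NCD 2, against at most 250.1 CPM in any other library, and in WT-HFD 2 and WT-HFD 4 the 6 neutrophil markers reached 187 and 505 CPM, against at most 52.6 CPM elsewhere.

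The sequences just around the starts of 5 members are shown because the members moved together between groups, and promoters are a feature they can be compared by. The 5 were chosen after their values were seen. Mrps22 and Mrps18a were among the members with the smallest p for diet in WT mice, Mrps27 differed between genotypes on HFD, Mrpl12 had the largest fall, and Mrpl33 was the member with a log2 fold change above 0. Each run holds 250 bases before and 50 after the RefSeq start on GRCm38.p6, 5′ to 3′ on the strand of the gene. Capitals mark a match to the core letters bound by NRF1 (GCATGCGC), by the ETS family, which includes the mitochondrial regulator GABP (CCGGAAG), or by YY1 (AAGATGGC), on either strand. The regions are chr9:98601630-98601929 (minus strand), chr17:46110754-46111053 (plus), chr13:99344536-99344835 (plus), chr11:120484387-120484686 (plus) and chr5:31613701-31614000 (plus).
Mrps22: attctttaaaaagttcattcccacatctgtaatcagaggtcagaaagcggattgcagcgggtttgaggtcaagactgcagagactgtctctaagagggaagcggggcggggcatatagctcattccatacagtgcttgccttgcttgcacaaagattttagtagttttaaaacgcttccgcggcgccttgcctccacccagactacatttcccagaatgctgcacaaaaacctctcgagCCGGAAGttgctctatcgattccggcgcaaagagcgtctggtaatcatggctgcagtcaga
Mrps18a: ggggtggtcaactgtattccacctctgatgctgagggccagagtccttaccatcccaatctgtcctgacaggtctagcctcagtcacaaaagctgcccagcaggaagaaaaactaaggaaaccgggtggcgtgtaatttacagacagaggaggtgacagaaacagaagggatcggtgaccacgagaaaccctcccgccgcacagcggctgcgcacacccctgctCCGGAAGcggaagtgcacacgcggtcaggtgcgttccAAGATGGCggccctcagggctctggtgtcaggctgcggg
Mrps27: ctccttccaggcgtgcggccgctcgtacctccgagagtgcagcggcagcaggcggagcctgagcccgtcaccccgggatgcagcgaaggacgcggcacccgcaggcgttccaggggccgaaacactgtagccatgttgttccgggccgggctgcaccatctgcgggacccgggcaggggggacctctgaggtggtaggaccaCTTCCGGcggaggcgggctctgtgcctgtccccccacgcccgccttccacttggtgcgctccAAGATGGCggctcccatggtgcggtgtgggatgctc
Mrpl12: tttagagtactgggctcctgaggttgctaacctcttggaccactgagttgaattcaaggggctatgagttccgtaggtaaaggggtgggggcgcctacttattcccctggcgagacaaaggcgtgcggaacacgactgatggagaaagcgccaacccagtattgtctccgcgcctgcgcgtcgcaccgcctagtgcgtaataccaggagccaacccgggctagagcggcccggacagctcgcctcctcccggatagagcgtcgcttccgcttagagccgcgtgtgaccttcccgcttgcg
Mrpl33: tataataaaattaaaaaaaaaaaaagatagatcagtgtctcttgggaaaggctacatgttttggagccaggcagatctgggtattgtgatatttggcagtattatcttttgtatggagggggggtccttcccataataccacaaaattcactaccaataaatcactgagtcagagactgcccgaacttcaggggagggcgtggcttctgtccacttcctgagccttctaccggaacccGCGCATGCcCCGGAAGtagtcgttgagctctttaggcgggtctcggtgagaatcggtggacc

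RefSeq promoters were matched for 69 members, which had 75 of them. The NRF1 letters stood in 10.7% of the members' promoters, the ETS letters in 34.7% and the YY1 letters in 16%, and 50.7% held at least 1 of the 3. Over all promoters of genes in the count table, the shares were 4.08%, 13.4%, 3.43% and 19.2%, at the same median GC content of 58.7%. Over the 32851 promoters of the RefSeq table they were 2.71%, 8.86%, 2.75% and 13.3%. Promoters of cytosolic ribosomal proteins held at least 1 of these motifs in 52.2% and those of oxidative phosphorylation subunits in 45.6%. The motifs were picked with the data known, each promoter was counted once per motif, and the NRF1 letters overlap their own reverse complement in GCGCATGCGC. A difference in the response to diet between members with and without a match was not tested. Of 38 members with a motif, 31 fell on HFD in WT mice (median log2 fold change -0.55), and of 31 without, 24 fell (median -0.58). Mrpl33 has an NRF1 and an ETS match, and Mrpl12 has none of the 3.

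Transcripts of mitochondrial ribosomal proteins were most abundant in WT-NCD, while the other 3 groups lay close together. Summed over the 78 members and scaled by TMM, they reached 2602, 2414 and 3004 CPM in KO-HFD 1, 2 and 3, 2506, 2497 and 2591 CPM in KO-NCD 1, 2 and 3, 2343, 2402 and 2555 CPM in WT-HFD 1, 2 and 4, and 4455, 3142 and 3433 CPM in WT-NCD 1, 2 and 3. On this scale, each WT-NCD library lay above all 9 others. TMM factors were 0.846 to 0.912 in WT-NCD and 0.981 to 1.08 elsewhere, and the order depended on them. As a share of raw counts, WT-NCD 2 at 0.273% lay below KO-HFD 3 at 0.309% and WT-HFD 4 at 0.277%. WT-NCD 1 and WT-NCD 3, at 0.377% and 0.313%, lay above every library of the other groups. WT-NCD 1 was the highest, with 78 of 78 members above their own mean over the 12 libraries, followed by WT-NCD 3 with 76 and WT-NCD 2 with 68. Among KO-HFD libraries, number 3 had 66 members above their mean, against 11 in number 1 and 2 in number 2. Except in WT-NCD, members varied less within groups than all genes did, by the median. The median SD of log2 CPM was 0.172 in KO-HFD, 0.0863 in KO-NCD, 0.102 in WT-HFD and 0.27 in WT-NCD, against 0.216, 0.187, 0.23 and 0.224 over all tested genes in the same groups. Only in WT-NCD was the members' median above that of all genes, as a description. Members had at least 449 counts in every library, while the filter let in genes from a minimum count of 10. Members and all genes were not matched by level, so a smaller SD is not shown to be a trait of the family.

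**Figure D1:**
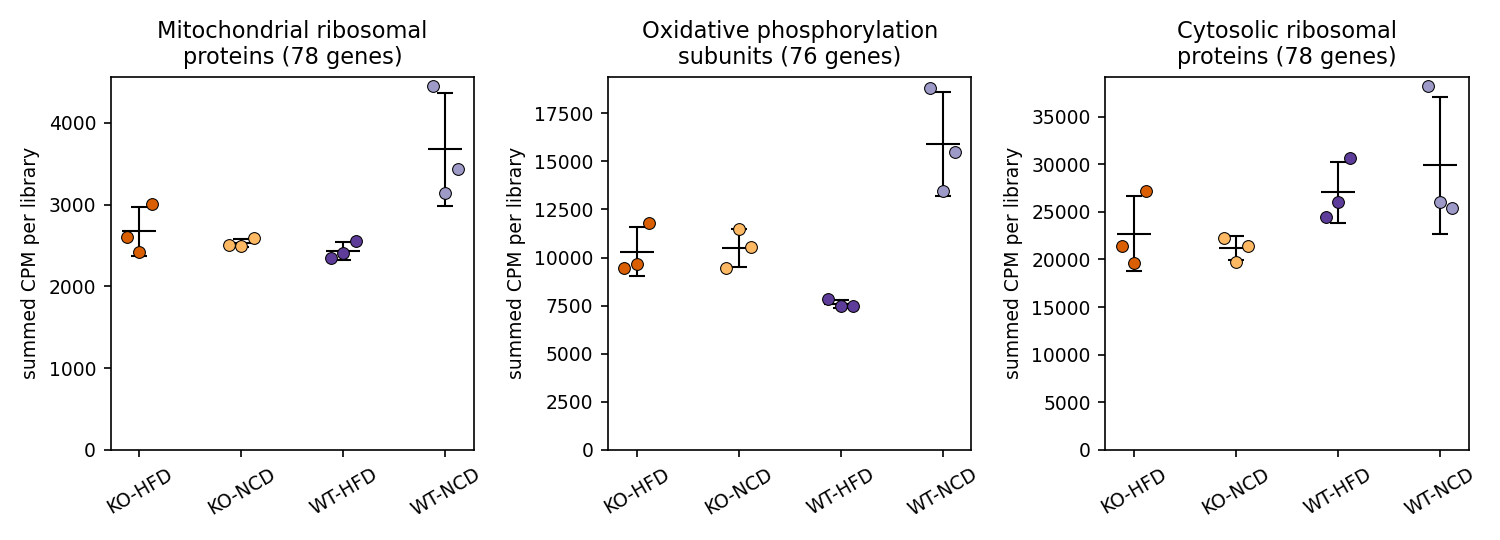
Summed CPM per library (points, vertical axes from 0) of mitochondrial ribosomal protein, oxidative phosphorylation and cytosolic ribosomal protein genes in KO-HFD, KO-NCD, WT-HFD and WT-NCD, with the mean and SD of 3 libraries (bars). In the panel of mitochondrial ribosomal proteins, the WT-NCD libraries sit between 3142 and 4455 CPM and all others between 2343 and 3004 CPM.

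Between members, levels were compared per kilobase of exon, since longer transcripts give more reads. Mrps6, a small subunit protein with a bacterial homologue, had the highest mean, at 101 CPM per kilobase, followed by the large subunit proteins Mrpl33 at 88.9 and Mrpl20 at 75.3. The lowest were Mrpl47 at 3.58, Mrpl19 at 4.03 and the small subunit protein Mrps25 at 4.86 CPM per kilobase. Exon lengths are those of GENCODE M21 with all exons of a gene merged, so long rarely used exons lower this value. Mrps6 overlaps Slc5a3 on the same strand, and part of its count may belong to that gene.

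In WT mice, most mitochondrial ribosomal protein genes fell on HFD. Of the 78, 60 were lower in WT-HFD than in WT-NCD at an adjusted p under 0.05, 0 were higher and 18 did not pass (edgeR's quasi-likelihood test), while 18.4% of all 16352 tested genes were lower and 17.6% higher. Beside the count of 0 higher members, 0 were higher at an unadjusted p under 0.05, where 22.3% of all genes were. By DESeq2, 0 were higher. The median log2 fold change of the members was -0.56, against -0.00 over all tested genes, and 77 of 78 lay below 0. For 64 members, all 3 WT-HFD libraries were below all 3 WT-NCD libraries, which held for 24.6% of all genes. The falls were found in every structural class. Among the 30 large subunit proteins with bacterial homologues, 22 fell (median log2 fold change -0.52), among the 21 large subunit proteins found in mitochondria only, 18 (median -0.57), among the 16 small subunit proteins with bacterial homologues, 12 (median -0.54), and among the 10 mitochondria-specific small subunit proteins, 8 (median -0.70). The differences between classes were not tested.

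The member with the smallest p was Mrps22, a mitochondria-specific protein of the small subunit in which mutations cause mitochondrial disease in humans. It was at 16.6, 15.6 and 16.6 CPM in WT-HFD, against 39.3, 32.9 and 32.2 CPM in WT-NCD. The groups lay far apart and the WT-HFD libraries within about 1 CPM of each other. It lies at chr9:98588730-98601679 (GRCm38, Entrez ID 64655), and the difference was log2 fold change -1.09, standard error 0.12, adjusted p = 0.000146. Mrps18a, despite its name a protein of the large subunit, was at 27.5, 31.5 and 32.7 CPM in WT-HFD, against 81.2, 59.98 and 56.3 CPM in WT-NCD (log2 fold change -1.11, standard error 0.15, adjusted p = 0.000356). All 3 WT-NCD libraries were above all WT-HFD libraries, with WT-NCD 1 highest. Mrps18a overlaps Rsph9 on the opposite strand.

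Of the other members with the smallest p, 3 have bacterial homologues. Mrps5 of the small subunit was at 25.4, 27.5 and 26.7 CPM in WT-HFD, against 49.02, 43.9 and 40.9 CPM in WT-NCD (log2 fold change -0.75, standard error 0.09, adjusted p = 0.000226). Mrps11, also of the small subunit, was at 11.6, 12.9 and 11.8 CPM in WT-HFD, against 26.6, 20.98 and 21.2 CPM in WT-NCD (log2 fold change -0.92, standard error 0.13, adjusted p = 0.000433). Neither gene's groups overlapped, although Mrps11 itself shares positions with Mrpl46 on the opposite strand. Mrpl2, a large subunit protein close to the site of peptide bond formation, was at 27.95, 31.4 and 31.8 CPM in WT-HFD, against 66.4, 49.6 and 52.4 CPM in WT-NCD (log2 fold change -0.89, standard error 0.12, adjusted p = 0.000496). Mrpl37, a mitochondria-specific large subunit protein, was at 36.1, 41.5 and 40.9 CPM in WT-HFD, against 79.8, 62.4 and 68.5 CPM in WT-NCD (log2 fold change -0.83, standard error 0.12, adjusted p = 0.000471).

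The largest fall was that of Mrpl12, the stalk protein of the large subunit that contacts translation factors. It was at 57.4, 51.9 and 57.2 CPM in WT-HFD, against 168, 106 and 120.2 CPM in WT-NCD, and at chr11:120484637-120488754. The difference was log2 fold change -1.25, standard error 0.18, adjusted p = 0.000561. At the other end stood Mrpl33, a large subunit protein with a bacterial homologue, at 41.3, 43.1 and 65.04 CPM in WT-HFD, against 61.5, 37.1 and 45.97 CPM in WT-NCD (log2 fold change 0.05, standard error 0.23, adjusted p = 0.893). Its groups overlapped, with WT-HFD 4 the highest library of all. Mrpl52 was similar, at 24.5, 33.9 and 43.7 CPM in WT-HFD, against 47.4, 27.5 and 27.4 CPM in WT-NCD, where WT-NCD 1 was highest. Mrpl52 was named after its values were seen.

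**Figure D2:**
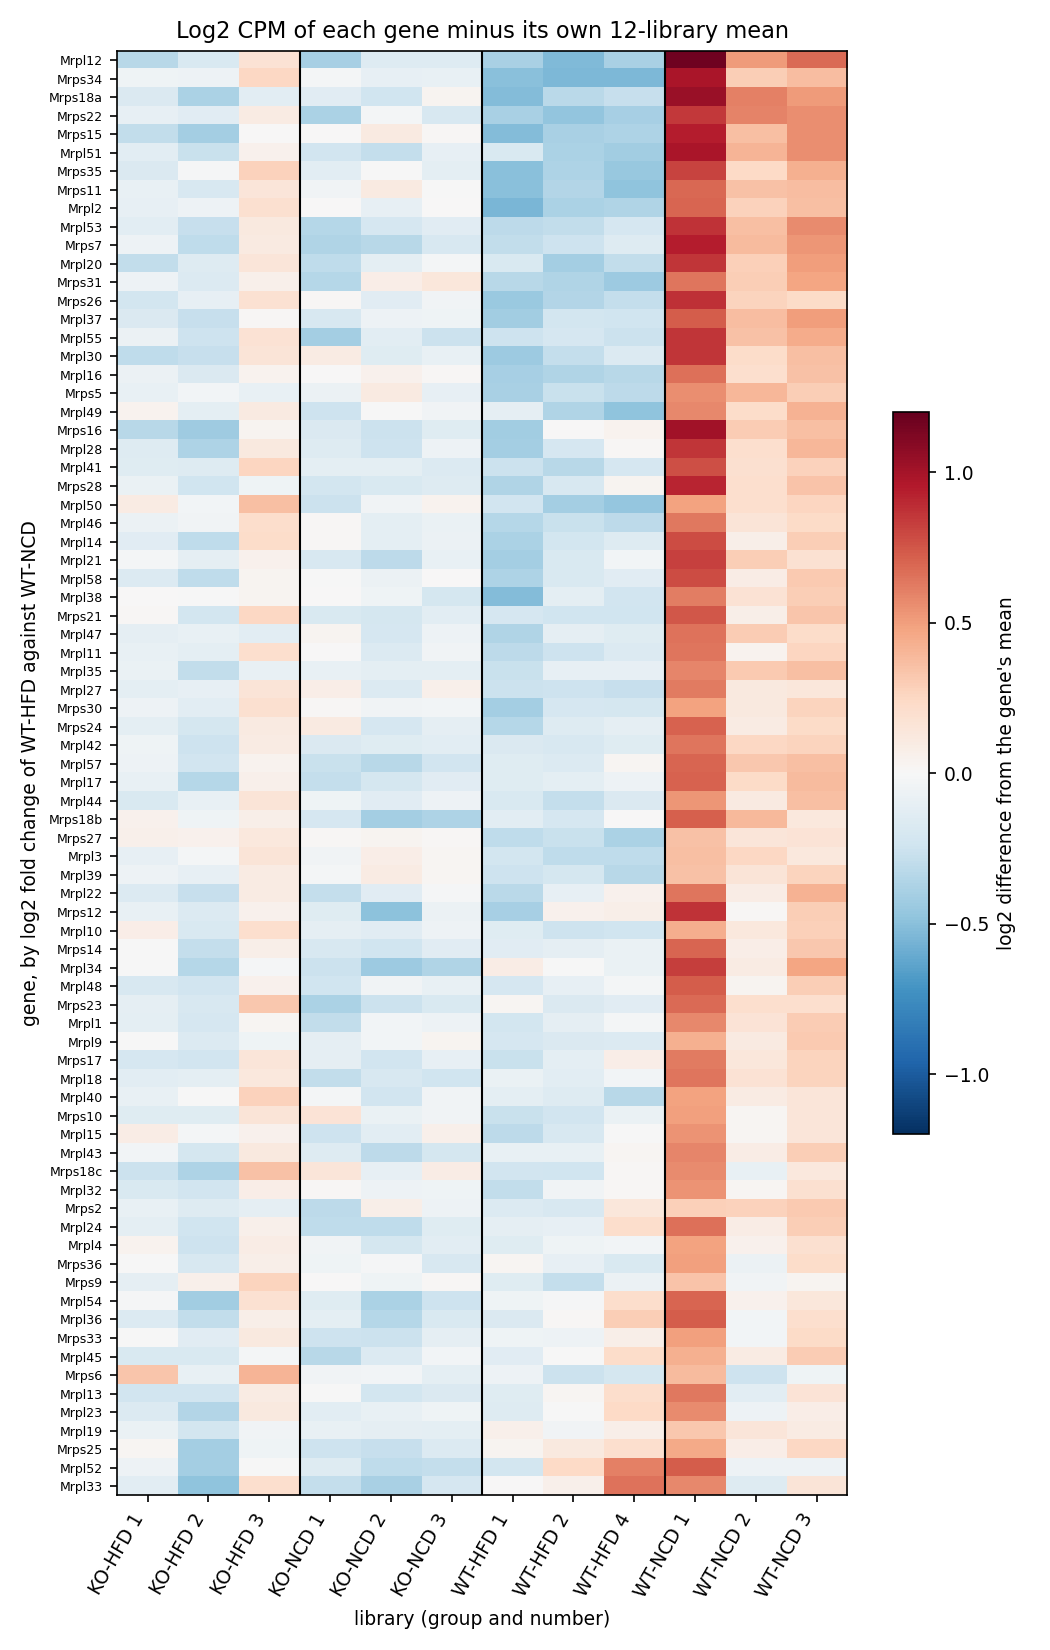
Log2 CPM of each of the 78 genes minus its own mean over the 12 libraries (colour), with libraries in columns by group and genes in rows, ordered by the log2 fold change of WT-HFD against WT-NCD. The WT-NCD columns are mostly red, above all WT-NCD 1 with 78 of 78 genes above their mean, and rows run from Mrpl12 (-1.25) at the top to Mrpl33 (0.05) at the bottom.

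The fall rested on libraries that also differed in other measures. The WT-NCD libraries were those with seminal vesicle markers, of which 7 of 7 were lower in WT-HFD, at a summed level of 0 to 0.123 CPM in WT-HFD against 20814 to 112432 CPM in WT-NCD. With WT-NCD 1 and WT-NCD 2 left out, which leaves the library with the least of these markers, 31 members were still lower, all of them among the 60. With the marker genes alone left out of the fit, all 60 remained. That run removed only the 7 marker genes, so other transcripts of the gland stayed in the counts. The part of seminal vesicle RNA in the members' levels was not tested. In WT-NCD 3, the library with the least of these markers, 72 of 78 members lay above all 3 WT-HFD libraries. The share of all genes was not counted for this, and the markers took 1.90% of the counts in WT-NCD 3. Shares of all genes lower in the runs with libraries left out are not given here. Adipocyte markers summed to 13404 to 17474 CPM in WT-HFD, against 23500 to 34873 CPM in WT-NCD, and 6 of 8 were lower in WT-HFD. Macrophage markers summed to 2734 to 4439 CPM in WT-HFD, against 1003 to 1124 CPM in WT-NCD, and 8 of 10 were higher. Of 6 neutrophil markers, 5 were higher, at 25.3 to 505 CPM in WT-HFD, against 12.3 to 15.1 CPM in WT-NCD. In whole tissue, fewer cells of a type and less RNA per cell cannot be told apart, and the part of these cell types in the fall of the members was not tested. Without the TMM factor, 27 members were lower, all of them among the 60, at a median of -0.30, when the median of all genes was 0.26. Without WT-HFD 2 and WT-HFD 4, the libraries with neutrophil markers, 30 members were lower.

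In KO mice, no member passed the test between diets. None of the 78 was higher or lower in KO-HFD than in KO-NCD at an adjusted p under 0.05, and 1 was higher and 0 were lower at an unadjusted p under 0.05, by edgeR's quasi-likelihood test and by DESeq2 alike. Over all genes, 0.0245% were higher and 0.00612% lower at an adjusted p under 0.05, and 4.82% and 4.54% at an unadjusted one. The members' median log2 fold change was 0.07, with a range of -0.27 to 0.35, against -0.01 over all genes. The 3 KO-HFD libraries were all above the KO-NCD libraries for 4 members and all below for 1, where the background was 8.52% and 8.95%. The 2 members with the smallest unadjusted p were small subunit proteins. Mrps18b was at 41.5, 38.5 and 41.8 CPM in KO-HFD, against 34.7, 30.1 and 31.00 CPM in KO-NCD (unadjusted p = 0.0279 in edgeR's quasi-likelihood test, log2 fold change 0.35, standard error 0.14, adjusted p = 0.45). These libraries did not overlap, and the difference did not pass. Mrps23 was at 36.2, 34.2 and 48.8 CPM in KO-HFD and 30.03, 32.7 and 34.5 CPM in KO-NCD, where KO-HFD 3 was the highest (log2 fold change 0.29, standard error 0.16, adjusted p = 0.626). With the replicate number as a block, 0 members passed in either direction, in all 12 libraries or in the KO libraries alone.

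On HFD, 4 members were higher in KO mice than in WT mice and 0 were lower, while 7.99% of all genes were higher and 7.72% lower. At an unadjusted p under 0.05, 17 members were higher and 0 lower, where 17.9% and 15.8% of all genes were. DESeq2 called 9 higher and 0 lower, and its share of all genes is not given here. The members' median log2 fold change was 0.15, against 0.02 over all genes, and 21 members were above in all 3 KO-HFD libraries and 2 below, against 19.3% and 17.0% of all genes. The 4 members make up a smaller share of the 78 than the background. Mrps27, a small subunit protein with pentatricopeptide repeats, an RNA-binding fold, was at 24.2, 24.03 and 25.3 CPM in KO-HFD, against 18.8, 19.3 and 17.8 CPM in WT-HFD (log2 fold change 0.40, standard error 0.08, adjusted p = 0.0126). Libraries of each group lay close together and the groups apart. It lies at chr13:99344767-99415562 (GRCm38).

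Mrps34, which the small subunit needs for its stability, was at 36.9, 36.7 and 45.4 CPM in KO-HFD, against 26.99, 26.2 and 26.2 CPM in WT-HFD (log2 fold change 0.58, standard error 0.16, adjusted p = 0.0369). Mrps34 overlaps Nme3 on the same strand and Mapk8ip3 on the opposite one, so reads there may be split. Mrpl50, of the large subunit, was at 40.9, 37.4 and 49.2 CPM in KO-HFD, against 32.6, 28.8 and 27.8 CPM in WT-HFD (log2 fold change 0.51, standard error 0.13, adjusted p = 0.0262). Mrpl2 was at 38.2, 39.2 and 46.5 CPM in KO-HFD, against 27.95, 31.4 and 31.8 CPM in WT-HFD (log2 fold change 0.44, standard error 0.12, adjusted p = 0.0372). In these 3 genes, KO-HFD 3 was the highest library and all KO-HFD libraries lay above all WT-HFD libraries. The calls were fragile. None of the 4 remained without KO-HFD 3 or without WT-HFD 4, in a fit with the replicate number as a block, or without WT-HFD 2 and WT-HFD 4 together. Without WT-HFD 2, without KO-HFD 2 and without KO-NCD 3, counts were 1, 2 and 2, and without WT-NCD 1 the count was 7. Adipocyte markers, 4 of 8 of them higher, summed to 21853 to 25011 CPM in KO-HFD, against 13404 to 17474 CPM in WT-HFD. Macrophage markers, 7 of 10 of them lower, summed to 1018 to 2270 CPM in KO-HFD, against 2734 to 4439 CPM in WT-HFD. All 6 neutrophil markers were lower, at 15.1 to 20.4 CPM in KO-HFD, against 25.3 to 505 CPM in WT-HFD. T cell markers, 3 of 5 of them higher, summed to 19.3 to 51.6 CPM in KO-HFD, against 6.93 to 14.3 CPM in WT-HFD, and 3 of 7 seminal vesicle and 1 of 6 liver markers were also higher. The part of these cells in the members' levels was not tested.

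**Figure D3:**
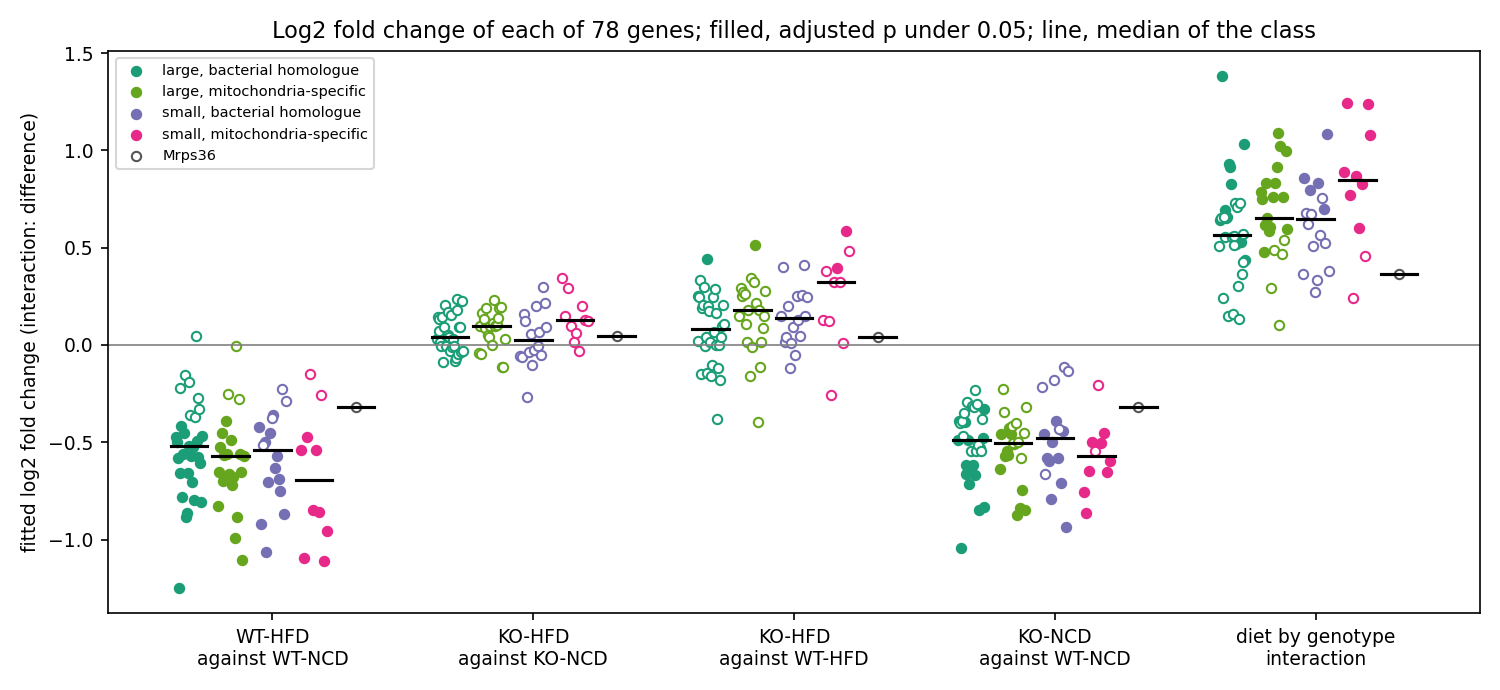
Fitted log2 fold change (vertical axis) of each of the 78 genes in the 4 comparisons and the diet by genotype interaction, by structural class (colour), with the median of each class (line) and genes at an adjusted p under 0.05 filled. In WT-HFD against WT-NCD 60 genes are filled and below 0, in KO-HFD against KO-NCD 0 are filled, in KO-HFD against WT-HFD 4, in KO-NCD against WT-NCD 46 below 0 and in the interaction 41 above 0.

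On NCD, the members were lower in KO mice than in WT mice. Of the 78, 46 fell, 0 rose and 32 did not pass, while 7.91% of all genes were lower and 5.27% higher. At an unadjusted p under 0.05, 69 were lower and 0 higher, beside 16.1% and 15.2% of all genes. DESeq2 called 62 lower and 0 higher, and its share of all genes is not given here. The median log2 fold change was -0.50 for the members, with all 78 below 0, against 0.06 over all genes. For 69 members all KO-NCD libraries were below all WT-NCD libraries, which held for 19.2% of all genes. This comparison and that of WT-HFD with WT-NCD share the WT-NCD libraries. Mrps22 again had the smallest p, at 16.7, 21.5 and 19.03 CPM in KO-NCD and 39.3, 32.9 and 32.2 CPM in WT-NCD (log2 fold change -0.87, standard error 0.12, adjusted p = 0.00429). Mrpl12 was at 56.7, 67.5 and 67.4 CPM in KO-NCD and 168, 106 and 120.2 CPM in WT-NCD (log2 fold change -1.04, standard error 0.18, adjusted p = 0.00844), the largest fall among the members. In both genes, every KO-NCD library lay below every WT-NCD library.

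Mrps7, a bacterial-type protein of the small subunit head, was at 54.4, 55.5 and 61.1 CPM in KO-NCD and 135, 90.9 and 101 CPM in WT-NCD (log2 fold change -0.93, standard error 0.15, adjusted p = 0.00665), with WT-NCD 1 the highest library. It overlaps Gga3 and Mif4gd on the opposite strand. Mrpl51, Mrpl53 and Mrpl57, proteins of the large subunit without bacterial homologues, had log2 fold changes of -0.87, -0.84 and -0.75 (adjusted p = 0.0083, 0.00736 and 0.00665). Mrpl57 was at 16.3, 15.7 and 16.7 CPM in KO-NCD, against 31.9, 24.6 and 25.3 CPM in WT-NCD. The number of calls depended on single libraries, although the median kept its sign. It was 12 without KO-NCD 1, 22 without KO-NCD 2, 11 without KO-NCD 3, 15 without WT-NCD 1 and 23 without WT-NCD 3, with medians between -0.63 and -0.37 over all libraries left out in turn. With WT-NCD 1 and WT-NCD 2 left out it was 0, when 0.380% of all genes were lower, and in WT-NCD 3 alone 75 of 78 members lay above all 3 KO-NCD libraries. For these 75 members, the share of all genes was not counted, and WT-NCD 3 is itself a library with seminal vesicle markers. The number of calls was 13 without the TMM factor (median -0.24, when that of all genes was 0.32) and 18 in a fit of the 2 groups alone. It was 20 with the replicate number as a block and 16 without KO-NCD 2 and KO-HFD 2. Seminal vesicle markers were lower in KO-NCD for 7 of 7, at 0.0902 to 0.436 CPM in KO-NCD and 20814 to 112432 CPM in WT-NCD. With the seminal vesicle marker genes left out of the fit, 45 members were lower, all of them among the 46. This run, too, removed only the marker genes, and the part of seminal vesicle RNA in the members' levels was not tested. None of the 8 adipocyte markers passed, but they summed to 19723 to 23464 CPM in KO-NCD, against 23500 to 34873 CPM in WT-NCD. Macrophage markers, 1 of 10 of them higher, summed to 1194 to 1914 CPM in KO-NCD, against 1003 to 1124 CPM in WT-NCD. T cell markers, 2 of 5 of them higher, summed to 18.7 to 32.8 CPM in KO-NCD, against 7.28 to 11.9 CPM in WT-NCD. Liver markers, 1 of 6 of them higher and 6 of 6 at an unadjusted p under 0.05, summed to 14.7 to 544 CPM in KO-NCD, against 6.45 to 11.1 CPM in WT-NCD, and the part of these cells was not tested.

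**Figure D4:**
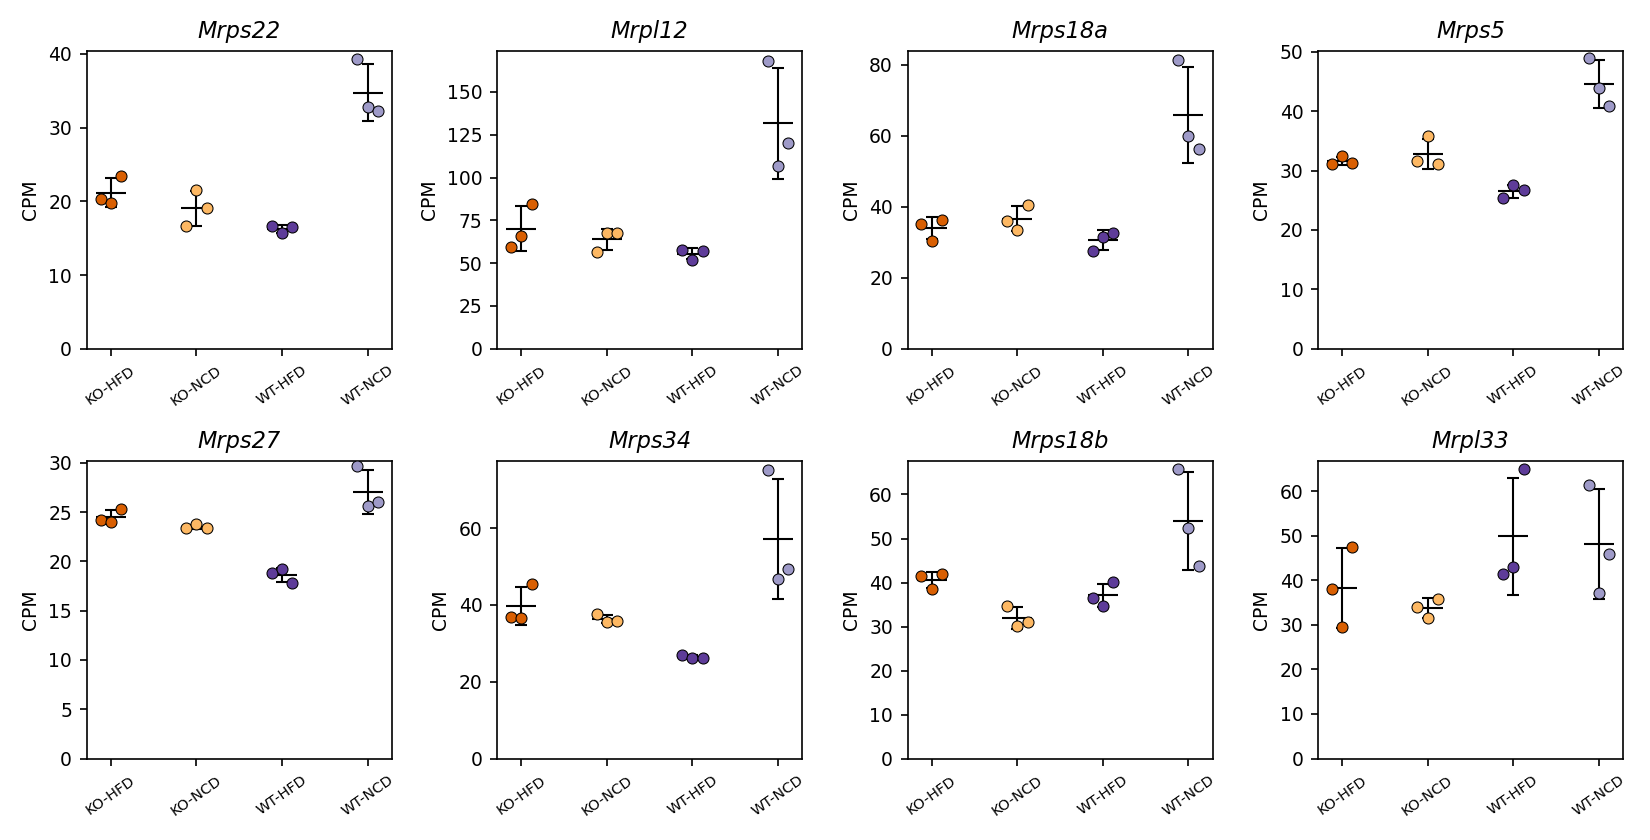
CPM per library (points, vertical axes from 0) of 8 genes in KO-HFD, KO-NCD, WT-HFD and WT-NCD, with mean and SD of 3 libraries (bars). In Mrps22, Mrpl12, Mrps18a and Mrps5 the WT-NCD libraries lie above all others, in Mrps27 and Mrps34 the WT-HFD libraries lie below all others, and in Mrpl33 the groups overlap.

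The response to diet differed between genotypes in 41 of 78 members. The interaction, the log2 fold change on HFD in KO mice minus that in WT mice, was positive in all 78, at a median of 0.65 against 0.01 over all genes. At an adjusted p under 0.05, 41 members were positive and 0 negative, against 9.12% and 8.57% of all genes. At an unadjusted p under 0.05, 62 were positive and 0 negative, beside 16.4% and 16.2% of all genes. DESeq2 called 51 positive and 0 negative, and its share of all genes is not given here. The 4 small subunit and large subunit classes each held positive calls, with 12 of 30, 16 of 21, 5 of 16 and 8 of 10 in the large bacterial-type, large mitochondria-specific, small bacterial-type and small mitochondria-specific classes. The interaction was 1.24 in Mrps22 (standard error 0.17, adjusted p = 0.00303). Its 4 group means were 21.2 ± 1.95 CPM in KO-HFD, 19.1 ± 2.39 CPM in KO-NCD and 16.3 ± 0.55 CPM in WT-HFD, against 34.8 ± 3.90 CPM in WT-NCD (SD, n = 3 each), so that WT-NCD stood above the rest.

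Mrpl12 had an interaction of 1.38 (adjusted p = 0.00657), with means of 70.05 ± 13.1 CPM in KO-HFD, 63.8 ± 6.19 CPM in KO-NCD and 55.5 ± 3.12 CPM in WT-HFD, against 132 ± 32.4 CPM in WT-NCD (SD, n = 3 each). Mrps34 had 1.24 (adjusted p = 0.00702), Mrpl53 1.02 (0.00766), Mrpl2 0.93 (0.00711) and Mrps5 0.70 (0.00677). In Mrps34, the WT-HFD mean of 26.5 ± 0.46 CPM was also below the KO-HFD mean of 39.7 ± 5.00 CPM (SD, n = 3 each). The interaction uses the WT-NCD libraries as well, and the part of seminal vesicle RNA in it was not tested. It was positive in 38 members, all of them among the 41, with the seminal vesicle marker genes left out of the fit, in 9 without WT-NCD 1 and WT-NCD 2, in 15 without the TMM factor, in 12 with the replicate block and in 9 without WT-HFD 2 and WT-HFD 4. With 1 library left out, the count was 24 without KO-HFD 3, 23 without KO-NCD 1 and 22 without KO-NCD 3. The share of all genes called in these runs is not given here. Fewer calls among the members and fewer calls over all genes therefore cannot be told apart.

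Members with tasks beyond the structure of the ribosome were described whatever their values. Mrpl58, a peptidyl-tRNA hydrolase built into the large subunit, was at 20.2, 23.01 and 23.8 CPM in WT-HFD, against 45.03, 27.9 and 32.5 CPM in WT-NCD, and fell (log2 fold change -0.65, standard error 0.16, adjusted p = 0.00985). Its KO-NCD libraries, at 25.97, 24.96 and 26.2 CPM, were below those of WT-NCD without passing (adjusted p = 0.0864). Mrpl45, which ties the ribosome to the inner membrane, did not pass between diets in WT mice, at 30.4, 33.4 and 38.9 CPM in WT-HFD, against 44.9, 35.9 and 41.4 CPM in WT-NCD (log2 fold change -0.25, standard error 0.12, adjusted p = 0.14). It was lower in KO-NCD, at 26.5, 29.9 and 32.7 CPM, than in WT-NCD (adjusted p = 0.0375). Mrpl44, which has a fold like ribonuclease III, fell in WT-HFD (-0.56, adjusted p = 0.00476) and was lower in KO-NCD than in WT-NCD (-0.42, adjusted p = 0.0416).

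Mrps30, a large subunit protein related to Mrpl37, fell in WT-HFD (-0.57, adjusted p = 0.00406) and had a log2 fold change of -0.32 in KO-NCD against WT-NCD that did not pass (adjusted p = 0.0935). Mrpl37 and Mrps30 had interactions of 0.79 and 0.60 (adjusted p = 0.00999 and 0.0329). The family has 3 proteins named after the bacterial S18 protein. In WT-HFD against WT-NCD, Mrps18a of the large subunit had a log2 fold change of -1.11 and Mrps18b of the small subunit -0.54 (adjusted p = 0.0107), while Mrps18c, also of the small subunit, had -0.37 and did not pass (adjusted p = 0.189). Mrps18c was at 20.6, 20.6 and 24.5 CPM in WT-HFD, against 35.9, 22.8 and 26.4 CPM in WT-NCD, and the groups overlapped. The difference between the 3 was not tested. Mrps36 carries the family name but is a part of the 2-oxoglutarate dehydrogenase complex of the citric acid cycle. It was at 19.96, 18.3 and 17.3 CPM in WT-HFD, against 27.7, 18.7 and 22.9 CPM in WT-NCD and did not pass in any comparison (log2 fold change -0.32, standard error 0.14, adjusted p = 0.101 in WT mice between diets).

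Other nuclear genes of mitochondrial translation fell on HFD in WT mice too, where 18.4% of all tested genes were lower and 17.6% higher. Of 5 mitochondrial ribosome proteins that do not carry the family name, 4 fell, among them the small subunit proteins Ptcd3 (-0.96, adjusted p = 0.000176) and Dap3 (-0.56, adjusted p = 0.00654). Of 15 translation factors, 11 fell and 0 rose. The elongation factor Tufm was at 57.4, 66.1 and 57.1 CPM in WT-HFD, against 138, 117 and 120.1 CPM in WT-NCD (log2 fold change -1.06, adjusted p = 0.000172), with no overlap. Gfm1, which moves the ribosome along the messenger, fell by 0.88 on the log2 scale (adjusted p = 0.000113). Of 26 ribosome assembly factors, 14 fell and 1 rose. The GTPase Noa1 (log2 fold change -0.84, adjusted p = 0.000439) and the rRNA methyltransferase Mrm3 (adjusted p = 0.000891) were among those that fell, and the pseudouridine synthase Rpusd4, named after its values were seen, rose (0.39, adjusted p = 0.0286). Of 17 mitochondrial aminoacyl-tRNA synthetases, which charge transfer RNAs, 13 fell, and of 10 genes of mitochondrial DNA transcription and replication, 6 fell. The mitochondrial RNA polymerase Polrmt was at 21.7, 22.5 and 22.2 CPM in WT-HFD, against 33.5, 38.3 and 36.95 CPM in WT-NCD (log2 fold change -0.71, adjusted p = 0.000205). In KO-NCD against WT-NCD, 4 of 5 of the other ribosome proteins, 8 of 15 translation factors, 5 of 26 assembly factors, 7 of 17 synthetases and 3 of 10 mitochondrial DNA genes were lower and 0 of any of these lists higher, beside 7.91% of all genes lower. In KO-HFD against KO-NCD, 0 passed in either direction in any of these lists, by edgeR. At an unadjusted p under 0.05, 2 of 26 assembly factors and 1 of 17 synthetases were higher, beside 4.82% of all genes. In KO-HFD against WT-HFD, 1 translation factor, 2 assembly factors and 3 synthetases were higher and 0 lower, which are 1 of 15, 2 of 26 and 3 of 17 beside 7.99% of all genes.

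The products of mitochondrial ribosomes are assembled with nuclear-encoded subunits, and these were set beside the members. Over all tested genes, 18.4% were lower in WT-HFD than in WT-NCD. In KO-NCD against WT-NCD, 7.91% were lower, and 16.1% at an unadjusted p under 0.05. In KO-HFD against WT-HFD, 7.99% were higher and 7.72% lower, and 9.12% had a positive interaction. Of 76 oxidative phosphorylation subunit genes of the nucleus, 75 were lower in WT-HFD than in WT-NCD, at a median log2 fold change of -0.99, 58 were lower in KO-NCD than in WT-NCD (median -0.66), 17 were higher in KO-HFD than in WT-HFD (median 0.34) and 61 had a positive interaction (median 1.01). Cytochrome c1 (Cyc1) was at 94.7, 95.95 and 87.2 CPM in WT-HFD, against 308, 254 and 270.3 CPM in WT-NCD (log2 fold change -1.58, adjusted p = 7.8e-05). Of 78 cytosolic ribosomal protein genes, 2 were lower in WT-HFD than in WT-NCD (median -0.12) and 11 in KO-NCD than in WT-NCD (median -0.48), with 60 at an unadjusted p under 0.05 in KO-NCD. In KO-HFD against WT-HFD, where the members had a median of 0.15, 1 cytosolic gene was lower and 0 higher (median -0.24, 75 of 78 below 0), and the interaction was positive in 1 (median 0.24). The summed level of the cytosolic ribosomal proteins was highest in WT-NCD 1, at 38210 CPM, and WT-NCD 2 and 3, at 26042 and 25375 CPM, lay in the range of WT-HFD, 24468 to 30672 CPM. Differences between these lists and the members were not tested.

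Of 10 regulators of mitochondrial biogenesis, 3 were lower and 2 higher in WT-HFD, beside 18.4% and 17.6% of all genes, so the counts lie near the background. Esrra, a nuclear receptor of mitochondrial genes, was at 45.1, 39.5 and 45.6 CPM in WT-HFD, against 81.7, 67.8 and 71.4 CPM in WT-NCD (log2 fold change -0.76, adjusted p = 0.000648). The coactivator Ppargc1a was at 2.96, 1.95 and 1.00 CPM in WT-HFD, against 5.12, 7.01 and 7.70 CPM in WT-NCD (-1.75, adjusted p = 0.0121). It was at 9.69, 14.7 and 9.35 CPM in KO-NCD, above all 3 WT-NCD libraries without passing the test (log2 fold change 0.77, adjusted p = 0.256). The growth regulator Myc was at 23.3, 16.6 and 22.7 CPM in WT-HFD, against 15.2, 14.7 and 11.6 CPM in WT-NCD, and rose (0.59, adjusted p = 0.0102).

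The members are spread over 17 chromosomes, with up to 11 on chromosome 11. Many start next to another gene. Of the 78, 33 (42.3%) start within 1000 bases of a protein-coding gene on the opposite strand in GENCODE M21, against 10.9% of 21951 protein-coding genes. Examples are Mrps11 and Mrpl46, which are neighbours of each other, Mrps12 and Sars2, a mitochondrial seryl-tRNA synthetase, at a distance of 172 bases, and Mrpl36 and Ndufs6, a subunit of complex I, at 29 bases. The span of 23 members overlaps a coding gene on the opposite strand and that of 4 one on the same strand. Whether counting used strand is not stated, so reads of such pairs may be shared. The 52 members without any overlap held 41 of the 60 that fell on HFD in WT mice, 32 of the 46 that were lower in KO-NCD than in WT-NCD and 27 of the 41 with a positive interaction.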

How the data were processed

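RNA was sequenced from whole gWAT of 12 samples, 3 per group, with a stranded mRNA kit. The authors deposited 1 table of raw read counts per Entrez gene, made per the labels and the submitters' processing notes with bcl2fastq 2.20.0, Trimmomatic, HISAT2 2.1.0 on mm10 and StringTie 1.3.4d. The strand setting of counting is not given in the sources used here. Counts are not scaled for depth, so libraries with a large share of a few transcripts lose counts elsewhere. TMM factors were applied for this.

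Of 19792 Entrez IDs, 19745 matched RefSeq symbols. Genes passing filterByExpr (minimum count 10, minimum total 15), 16352 in all, were fitted with edgeR 4.0.16 (quasi-likelihood test, 4 groups in 1 fit, 8 residual degrees of freedom) in R 4.3.3, and p-values were adjusted by Benjamini-Hochberg over all of them. The standard error is the log2 fold change divided by the root of F. The fit was tested on simulated data. DESeq2 1.42.0, other scalings and filters, fits of 2 groups, a replicate block and omitted libraries served as alternatives. CPM are TMM-scaled.

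The members, lists, motifs and tests were chosen with earlier results of these data known. Members were named by these rules: the 6 smallest p among calls per comparison, or 2 where none passed, members with a role of their own, and the extremes of level per kilobase. Other genes named were the 3 with the smallest p of a list in WT mice between diets, or fewer, and exceptions are stated.

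The column numbered 4 of WT-HFD matches no sample title of that number, so it was used as a replicate of its group only. Deviations from the group means of KO-HFD and KO-NCD libraries with the same number had correlations of 0.468, 0.699 and 0.195 for numbers 1, 2 and 3. Between different numbers of these groups they ran from -0.571 to 0.182, the highest for KO-HFD 3 with KO-NCD 1. The libraries numbered 2 were those with the most liver transcripts. In the other pairs of groups at least 1 correlation between libraries of the same number was not above 0.1. No label says what the number marks. The lowest count of a member in any library was 449.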

Additional observations from a re-analysis of the deposited data

Results flagged for a closer look

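The effect of HFD differed between genotypes in 41 members, each by a test of the interaction itself (edgeR's quasi-likelihood test, adjusted p under 0.05). Among the named members that passed, the interaction on the log2 scale was 1.38 in Mrpl12, 1.24 in Mrps22, 1.24 in Mrps34, 1.09 in Mrpl51, 1.08 in Mrps7, 1.02 in Mrpl53, 1.00 in Mrps18a, 0.93 in Mrpl2, 0.91 in Mrpl50, 0.91 in Mrpl20, 0.89 in Mrps18b, 0.86 in Mrps11, 0.79 in Mrpl37, 0.77 in Mrps23, 0.76 in Mrpl57, 0.70 in Mrps5, 0.61 in Mrpl44, 0.60 in Mrps30 and 0.60 in Mrps27. In each of these the difference of KO-HFD and KO-NCD did not pass and WT-HFD was lower than WT-NCD. All of them use the WT-NCD libraries, in which seminal vesicle transcripts took 1.90% to 9.77% of the counts. Leaving out the marker genes does not remove other transcripts of that gland, and their part in the interaction was not tested. With the seminal vesicle marker genes left out of the fit, 38 of the 41 remained, and without WT-NCD 1 and WT-NCD 2, 9 remained.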

How the results depend on the processing

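The median of KO-HFD against KO-NCD, where no member passed, was 0.07 and turned to -0.01 without KO-HFD 3. The other medians and the named results that had passed kept their direction under every alternative run. Without the TMM factor, 27 members were lower in WT-HFD than in WT-NCD (median log2 fold change -0.30), 13 lower in KO-NCD than in WT-NCD (median -0.24) and 15 had a positive interaction (median 0.37). The medians of all genes then stood at 0.26, 0.32 and -0.26, and relative to them the members' medians were -0.56, -0.56 and 0.64. The share of all genes higher and lower was then 29.6% and 10.2% in WT mice between diets (17.6% and 18.4% with the factor), 19.9% and 3.16% between genotypes on NCD (5.27% and 7.91%), and 4.90% and 16.8% for the interaction (9.12% and 8.57%). In KO-HFD against WT-HFD, DESeq2 called 9 members. A fit of the 2 groups compared gave 1 in KO-HFD against WT-HFD and 18 in KO-NCD against WT-NCD. With the replicate block, the counts were 0 in KO-HFD against WT-HFD, 12 for the interaction, 20 in KO-NCD against WT-NCD and 43 in WT-HFD against WT-NCD. With the seminal vesicle marker genes left out of the fit, 60 members were lower in WT-HFD, 45 in KO-NCD than in WT-NCD, 3 higher in KO-HFD than in WT-HFD and 38 had a positive interaction. Without WT-NCD 1 and WT-NCD 2, 31 members were lower in WT-HFD, 0 in KO-NCD, and 9 had a positive interaction. Without KO-NCD 2 and KO-HFD 2, the libraries with the most liver transcripts, 1 was higher in KO-HFD than in WT-HFD, 16 were lower in KO-NCD than in WT-NCD and 27 had a positive interaction. Without WT-HFD 2 and WT-HFD 4, an alternative chosen after seeing the data, 30 were lower in WT-HFD than in WT-NCD, 0 higher in KO-HFD than in WT-HFD and 9 had a positive interaction. Where 1 library of a group was left, it is assumed to vary like the other groups. With each library left out in turn, counts ran from 46 to 65 (medians -0.67 to -0.44) for WT-HFD against WT-NCD, from 0 to 0 (-0.01 to 0.12) for KO-HFD against KO-NCD, from 0 to 7 (0.04 to 0.22) for KO-HFD against WT-HFD, from 22 to 52 (0.50 to 0.74) for the interaction and from 11 to 58 (-0.63 to -0.37) for KO-NCD against WT-NCD. The causes of these changes were not tested. Shares of all genes are given in this section for the run without the TMM factor only. For the other runs, fewer calls among the members and fewer calls over all genes cannot be told apart here. For 24 results of named members, 524 combinations of result and setting were run, of which 480 kept their side of the threshold and 44 lost the call. No member had fewer than 449 counts in any library.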

Other observations

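Lars2, the mitochondrial leucyl-tRNA synthetase, stood at 966 CPM in KO-HFD 1, against 36.9 and 32.4 CPM in the other KO-HFD libraries and 21.5 to 118 CPM in the 9 libraries of the other groups.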
